A study of Mus musculus with 30 samples.

Results

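The immunoglobulin variable (V) gene repertoire of sorted mouse bone marrow progenitors was followed through every gene that the deposited count tables annotate as an immunoglobulin V gene. By that annotation, 218 of 55471 genes were members, of which 113 were heavy chain genes (symbols starting Ighv), 100 were kappa light chain genes (Igkv) and 3 were lambda light chain genes (Iglv). The remaining 2 members, Gm43218 and Gm42543, carried no chain in their symbol. V pseudogenes, of which the tables hold 158, and the 13 constant region genes were not members. The same 218 genes stood in a table of hematopoietic stem cells (HSCs) and in a table of multipotent progenitors (MPPs).

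An antibody's variable domain is assembled in developing B cells, where a single V gene is joined to short D and J segments on the heavy chain, or to a J segment alone on the kappa or lambda chain. Each mature B cell or plasma cell therefore transcribes mainly 1 productive heavy and 1 productive light chain gene. A plasma cell transcribes them at very high levels. V gene counts in a tissue thus reflect mainly the V genes that its B lineage cells use. They do not tell clones apart, since many clones can use the same V gene. HSCs and MPPs have not rearranged these genes; unrearranged V genes can be transcribed at low level in lymphoid progenitors.

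RNA was sequenced from C57BL/6 mice given either MTP10-HDL, a lipoprotein nanoparticle loaded with a muramyl peptide that stimulates innate immune cells, or phosphate-buffered saline (PBS), and each sample pooled the cells of 4 mice. HSCs gave 7 PBS and 6 MTP10-HDL libraries, and MPPs gave 2 PBS libraries, numbered 2 and 3, and 3 MTP10-HDL libraries. For the MPP samples the labels give 3 injections within 5 days, killing on the following day, and a sort of femur and tibia marrow by flow cytometry after magnetic depletion of lineage-positive cells. The schedule and the sort are not given for the HSC RNA samples in the sources used here. The pools were the units of replication, so p-values measure the spread between pools.

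HSC libraries held 4064155 to 7879858 counts. MPP PBS libraries held 14691375 and 11252479 counts, and MPP MTP10-HDL libraries 1, 2 and 3 held 32769369, 30506148 and 17555267, so depth separated the MPP treatments. In the HSC table, PBS 1 and 4 and MTP10-HDL 2 and 3 had the fewest detected genes (24233 to 27528). PBS 2 and 3 and MTP10-HDL 1 and 4 had the highest ribosomal RNA shares (0.813% to 1.26%), with mitochondrial ribosomal RNA left out. The ribosomal RNA shares given here all leave it out. With it counted, MTP10-HDL 2, PBS 1 and PBS 6 had larger shares than those libraries. Results are given within the few-gene set, the ribosomal RNA set and the remaining 5 libraries where they allow. All HSC and MPP marker genes on the lists used were detected in their tables. Markers of B lineage cells were detected too, and their levels are given beside the V gene results.

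V genes took a large and very uneven part of the HSC libraries. In percent of all counts, the V share with PBS ranged from 0.0473% in PBS 6 to 4.41% in PBS 2, with a median of 0.445%. With MTP10-HDL it ranged from 0.0688% to 0.958%, with a median of 0.271%. The groups overlapped, and the spread among PBS libraries was wider than the distance between the medians. These shares rest on 2898 V counts in PBS 6 to 256609 in PBS 2. The 95% Wilson intervals, which cover counting error only, were 0.0456% to 0.0491% in PBS 6 and 4.39% to 4.43% in PBS 2.

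Among the MPP libraries the V share was 2.82% and 1.34% with PBS, and 0.844%, 0.554% and 0.567% with MTP10-HDL 1, 2 and 3. Both PBS libraries stood above all 3 MTP10-HDL libraries. The mean log2 share was lower with MTP10-HDL by 1.60, which became -1.06 without PBS 2 and -2.14 without PBS 3. T cell receptor V genes, the corresponding genes of T cells, took at most 0.000450% of MPP counts and 0.00263% of HSC counts.

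**Figure D1:**
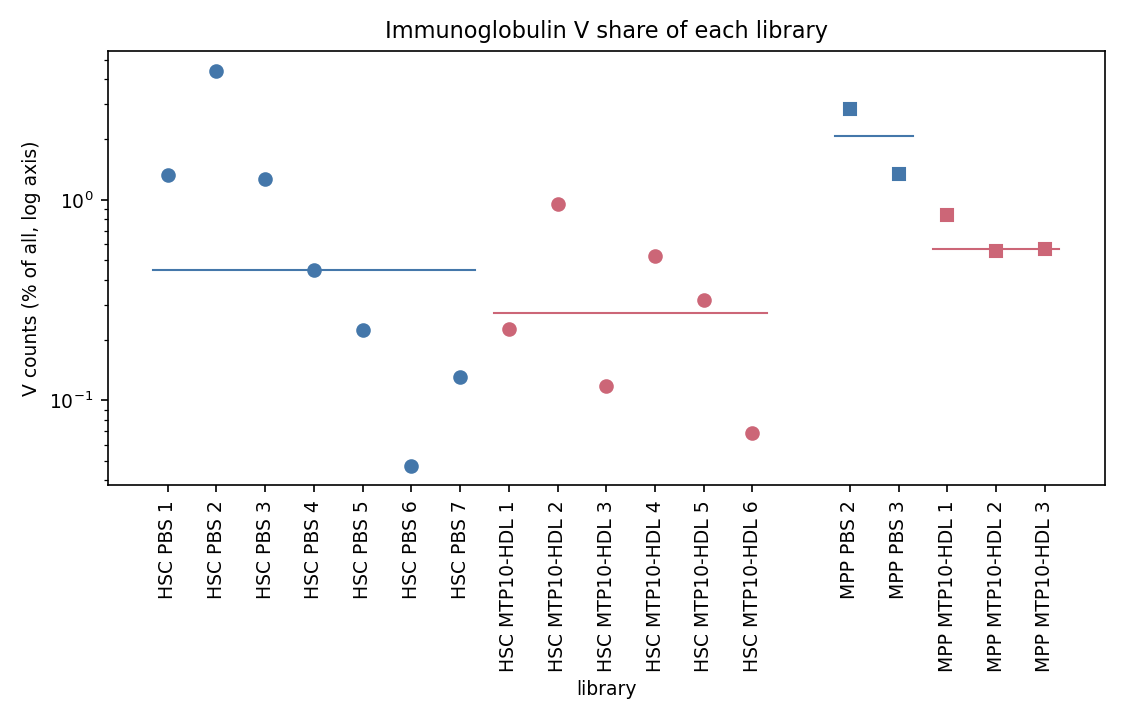
Share of V gene counts in all counts (percent, log axis) for each of the 18 RNA libraries, with PBS in blue, MTP10-HDL in red, circles for HSC, squares for MPP and lines at the group medians. HSC groups overlap, from 0.0473% to 4.41% with PBS, whereas both MPP PBS squares lie above the 3 MPP MTP10-HDL squares.

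The HSC difference in V share depended on which libraries were set against each other. Among the libraries with few detected genes, the mean V share was 0.888% with PBS (n = 2) and 0.538% with MTP10-HDL (n = 2). Among those with high shares of non-mitochondrial ribosomal RNA the means were 2.84% (n = 2) and 0.377% (n = 2). In the remaining libraries the order turned, with 0.134% for PBS (n = 3) and 0.193% for MTP10-HDL (n = 2). Sets of this size were given no test.

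Constant region transcripts moved with the V genes. Constant region genes, which every antibody transcript carries, gave 2.90 to 5.60 counts per V count in the HSC libraries and 3.42 to 6.66 in the MPP libraries. Ighm, the IgM constant region, made up 82.6% to 96.4% of heavy constant counts in HSC libraries and 88.3% to 96.0% in MPP libraries. Igha, the IgA constant region, came next by median, with 4.37% and 2.42%.

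Plasma cell markers (10 of 10 detected in both tables) summed to 200 to 2494 CPM in HSC PBS libraries and 213 to 882 in HSC MTP10-HDL libraries, with both highest values, 2494 in PBS 2 and 960 in PBS 1, in libraries rich in V counts. CPM are counts relative to the library size after TMM scaling, so they differ from raw shares of all counts. Mature B cell markers (9 of 9 detected) summed to 159 to 1452 CPM with PBS and 222 to 3100 with MTP10-HDL in HSC libraries, and early B lineage markers (14 of 14) to 94.0 to 595 and 98.5 to 180. All 3 lists overlapped between HSC groups. The 595 stood in PBS 5, where the V share was only 0.224%. The 3100 stood in MTP10-HDL 1, where Cd74, which myeloid cells also express, gave 2944 CPM of it. The monocyte and macrophage list and the neutrophil list were highest in that library too, at 7345 and 4526 CPM. Erythroblast markers did not overlap, at 102 to 233 CPM with PBS and 37.8 to 93.4 with MTP10-HDL. The part of these cells in the V gene values was not tested.

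In MPP libraries the plasma cell list summed to 1586 and 905 CPM with PBS and to 723, 810 and 556 with MTP10-HDL. Mature B cell markers summed to 920 and 717 CPM in MPP PBS libraries and to 423, 563 and 393 with MTP10-HDL. Both sums were lower in every MPP MTP10-HDL library. Xbp1 and Txndc5 made up most of the plasma cell sum, and Cd74 most of the mature B cell sum. These genes were lower without overlap, as were Sdc1, Irf4, Tnfrsf17, Derl3, Ms4a1 and Fcrla. The other genes of the lists overlapped between groups: Prdm1, Mzb1, Fkbp11, Creld2, Cd22, Fcer2a, Cr2, Cd37, Bank1 and Blk. Lists outside the B lineage parted the treatments as well. Erythroblast markers summed to 26.7 and 60.5 CPM with PBS and to 4.45, 3.94 and 11.1 with MTP10-HDL, and HSC markers to 1665 and 1478 against 1134, 912 and 1039. MPP markers were higher with MTP10-HDL, at 2629, 2699 and 2632 CPM against 2177 and 2550. The summed T and NK cell list was higher too, at 52.0, 83.4 and 49.1 against 40.7 and 46.6. Most of that sum was Nkg7, at 36.2 to 44.9 CPM with PBS and 43.8 to 80.0 with MTP10-HDL. No gene of the T and NK cell list parted the groups alone, and Cd3e had no count with MTP10-HDL.

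Early B lineage markers, of cells before and during rearrangement, ran the other way in MPP libraries. They summed to 989 and 1125 CPM in MPP PBS libraries and to 1694, 2154 and 1831 with MTP10-HDL. Most of the sum was Dntt, at 482 to 689 CPM with PBS and 1158 to 1669 with MTP10-HDL. Rag2 and Il7r were also higher without overlap, and the other genes of the early list overlapped between groups. No marker on these 3 lists was at 0 throughout a table. Ribosomal RNA share also parted the MPP treatments, at 1.47% and 1.26% with PBS and 0.916%, 0.853% and 0.508% with MTP10-HDL. The part of these markers, depth and RNA share in the V gene difference was not tested. In such bulk samples fewer cells of a type and less RNA per cell cannot be told apart.

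Heavy chain genes took 32.3% to 50.5% of V counts in HSC libraries, with medians of 38.4% for PBS and 41.7% for MTP10-HDL. In MPP libraries the heavy share was 32.1% and 28.1% with PBS and 35.1%, 25.0% and 36.6% with MTP10-HDL. Both sets of groups overlapped. Lambda genes, the rarer light chains of mice, took 1.23% to 7.62% of light chain V counts in HSC PBS libraries (median 3.66%) and 3.17% to 21.7% with MTP10-HDL (median 9.86%). The highest lambda shares stood in MTP10-HDL 3, 1 and 4, at 21.7%, 16.3% and 10.9%, but MTP10-HDL 5 and 6 lay within the PBS range. In MPP libraries lambda took 3.38% and 3.97% with PBS and 5.64%, 5.28% and 3.68% with MTP10-HDL, again with overlap. Iglv1 was the lambda gene of largest median share, at 77.0% of HSC lambda counts and 72.3% of MPP lambda counts.

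Few genes carried most of these counts. Of the 218 members, 213 had a count in at least 1 HSC library, but only 18 had one in all 13. In MPP libraries 204 had a count and 128 had one in all 5. The most used gene of an HSC library took 7.61% to 33.2% of its V counts, and 2 to 11 genes were enough to reach 50%. The 10 most used genes of each library took 65.4% to 82.5% with PBS (median 78.4%) and 49.2% to 78.8% with MTP10-HDL (median 67.6%). The effective number of genes (the inverse of the summed squared shares, which equals the gene number when all are used equally) was 6.74 to 12.4 with PBS and 6.11 to 30.0 with MTP10-HDL. MTP10-HDL 1 had the most even use, with an effective number of 30.0, and MTP10-HDL 4 the least even, with 6.11, so the extremes on both sides belonged to the same treatment.

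**Figure D2:**
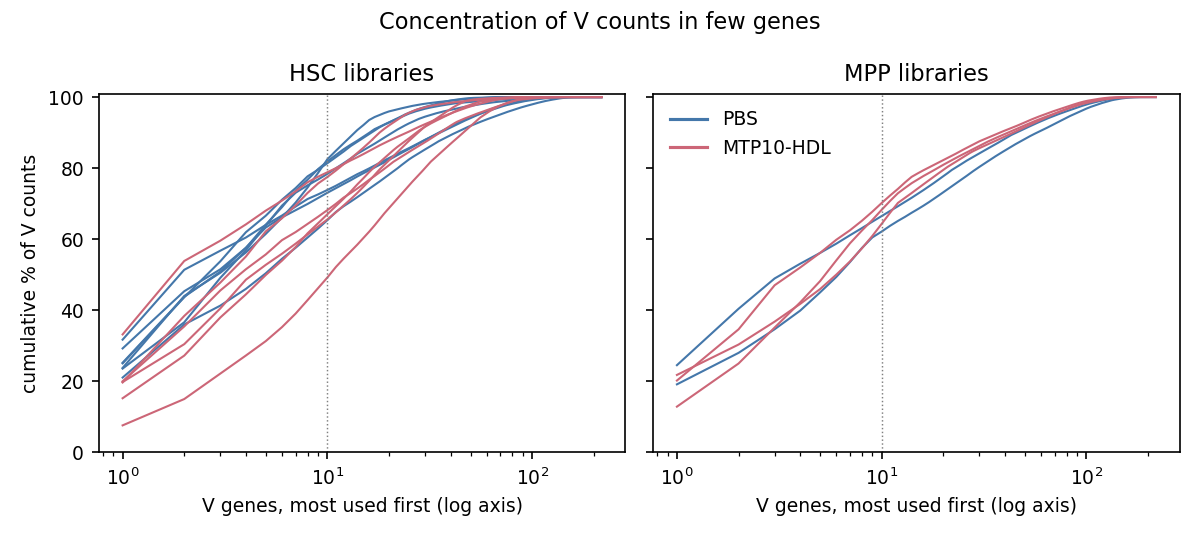
Cumulative share of V counts (percent) against the number of V genes, most used first (log axis), with 1 line per library, PBS in blue, MTP10-HDL in red and a dotted line at 10 genes. HSC lines cross the dotted line between 49.2% and 82.5%, and MPP lines between 62.2% and 70.2%.

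MPP libraries were closer to each other. Their 10 most used genes took 62.2% and 66.5% of V counts with PBS and 68.3%, 64.3% and 70.2% with MTP10-HDL. The effective number was 15.9 and 10.0 with PBS and 16.3, 13.6 and 11.4 with MTP10-HDL. These ranges overlapped. Within the heavy chain alone, the 10 most used genes took 63.5% and 73.0% with PBS and 79.3%, 74.8% and 80.8% with MTP10-HDL, without overlap. When every library was thinned to 2898 V counts, the smallest V total in the series, 147 and 134 V genes were expected with PBS and 129, 126 and 119 with MTP10-HDL, also without overlap. Both of these measures were thus on the less diverse side with MTP10-HDL in the MPP table. The effective number of heavy genes overlapped there, at 14.2 and 7.87 with PBS and 7.49, 10.3 and 6.70 with MTP10-HDL. The share of the 10 most used light genes overlapped as well. Thinned HSC libraries also overlapped, at 55.6 to 133 genes with PBS and 67.8 to 104 with MTP10-HDL. No test is given for these summaries over chosen genes.

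The same genes led both tables. Of the 10 genes with the largest mean share in each table, 9 were shared: the heavy genes Ighv7-1, Ighv5-16, Ighv6-3 and Ighv11-2, the kappa genes Igkv15-103, Igkv14-126, Igkv1-88 and Igkv12-89, and the lambda gene Iglv1. Igkv3-10 completed the list for HSCs and Igkv5-39 for MPPs. The 10 genes together took 33.4% of V counts in HSC MTP10-HDL 1 and up to 71.4% in HSC PBS 5, and 58.3% to 66.8% in MPP libraries. These are shares of counts, not per gene length. Divided by the RefSeq gene span, which runs from 211 to 767 bases and was matched for 216 members, 9 of the 10 HSC genes and all 10 MPP genes stayed on the list.

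Igkv15-103 (ENSMUSG00000076523, mm10 chromosome 6, 68437468 to 68437925), a single-gene kappa family, led 9 of 13 HSC libraries. It took 0.828% to 31.7% of HSC V counts with PBS (median 21.1%) and 7.41% to 33.2% with MTP10-HDL (median 19.7%). PBS 6 was far below every other HSC library. In MPP libraries it took 8.86% and 15.9% with PBS and 12.9%, 8.56% and 20.2% with MTP10-HDL, and led 2 of the 5.

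Ighv7-1 (ENSMUSG00000076665, chromosome 12, 113896408 to 113896946) is known as a heavy chain gene of natural antibodies to phosphorylcholine. It was the only V gene among the 10 most used of all 13 HSC libraries, with 4.11% to 19.7% of V counts with PBS (median 14.9%) and 5.07% to 20.7% with MTP10-HDL (median 13.7%). It was also the most used heavy gene of 9 HSC libraries and all 5 MPP libraries, where it took 5.25% and 8.53% of V counts with PBS and 10.1%, 5.00% and 12.4% with MTP10-HDL. The deposited tables class Ighv7-1 as a V gene, whereas the RefSeq table of GRCm38.p6 lists it, with Igkv14-126 and Ighv7-3, as a V segment pseudogene.

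Igkv14-126 (ENSMUSG00000094345, chromosome 6, 67896177 to 67896642) and Ighv11-2 (ENSMUSG00000096108, chromosome 12, 114048241 to 114048704) are known together as the light and heavy chain genes of many B-1 cells that bind phosphatidylcholine. Igkv14-126 had the largest mean share of the MPP table and led 3 of its libraries, with 19.2% and 24.6% of V counts for PBS and 12.1%, 21.8% and 14.4% for MTP10-HDL. In HSC libraries it was a lesser gene, with 3.64% to 5.67% for PBS (median 4.93%) and 1.17% to 9.38% for MTP10-HDL (median 3.71%). Ighv11-2 took 3.94% and 4.15% of MPP V counts with PBS and 2.98%, 3.52% and 2.68% with MTP10-HDL. It took 1.20% to 4.21% of HSC V counts with PBS (median 2.10%) and 0.802% to 7.07% with MTP10-HDL (median 2.03%). The tables come from different kits, so shares are not tested between them.

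Igkv1-88 (ENSMUSG00000076535, chromosome 6, 68862265 to 68863031) and Ighv5-16 (ENSMUSG00000094194, chromosome 12, 113838528 to 113838821) were dominated by a pair of HSC libraries. Igkv1-88 led PBS 5 and PBS 6, with 23.6% and 23.8% of V counts, against 0.0114% to 6.08% in all other HSC libraries. Divided by gene span, which is 767 bases for Igkv1-88 and 294 for Ighv5-16, Ighv5-16 led both libraries instead, with 20.9% and 31.0% of the length-scaled V counts. By counts, Ighv5-16 took 13.0% and 20.3% in PBS 5 and PBS 6 and at most 6.16% elsewhere, and had no count in PBS 4. Igkv1-88 and Ighv5-16 thus had their highest shares in the same libraries. In MPP libraries Igkv1-88 took 6.64% and 2.60% with PBS and 4.82%, 3.72% and 5.00% with MTP10-HDL, with no library set apart.

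Ighv6-3 (ENSMUSG00000076677, chromosome 12, 114391712 to 114392010) led HSC MTP10-HDL 1 with 7.61% of V counts. MTP10-HDL 2, 3 and 4 held 10.1%, 8.08% and 4.59%, and MTP10-HDL 5 and 6 held 0.749% and 0.797%. With PBS it took 0.447% to 1.82% (median 0.705%), so 4 of 6 MTP10-HDL libraries lay above every PBS library and the other two within their range. In MPP libraries it took 1.35% and 0.972% with PBS and 5.97%, 3.42% and 2.12% with MTP10-HDL, without overlap.

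Iglv1 (ENSMUSG00000076934, chromosome 16, 19085017 to 19085460) took 0.131% to 2.88% of HSC V counts with PBS (median 2.10%) and 0.106% to 10.1% with MTP10-HDL (median 4.01%). In MPP libraries it took 1.66% and 1.81% with PBS and 2.51%, 3.14% and 1.82% with MTP10-HDL. Igkv12-89 (chromosome 6, 68834846 to 68835307) took 0.0375% to 7.79% of HSC V counts with PBS and 0.588% to 3.48% with MTP10-HDL. Igkv3-10 (chromosome 6, 70572633 to 70573230) owed its place to PBS 7, which it led with 25.1%, and to MTP10-HDL 5 with 5.44%; no other HSC library exceeded 0.635%. Igkv5-39 (chromosome 6, 69900424 to 69900977) took 2.99% and 1.36% of MPP V counts with PBS and 5.84%, 4.07% and 2.45% with MTP10-HDL.

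**Figure D3:**
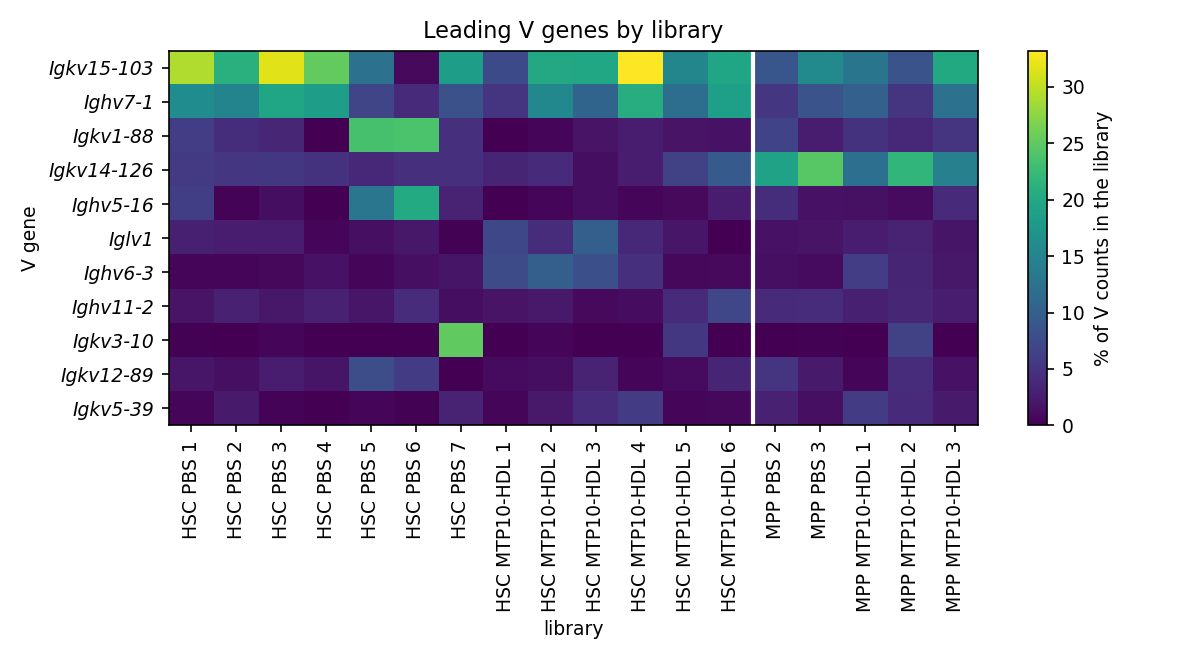
Share of V counts (percent, colour) taken by the 11 genes that were among the 10 of largest mean share in the HSC or the MPP table, for each of the 18 libraries, with a white line between tables. Igkv15-103 and Ighv7-1 are bright across most libraries, Igkv1-88 and Ighv5-16 in HSC PBS 5 and 6, Igkv3-10 in HSC PBS 7, and Igkv14-126 in MPP libraries.

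Below the leaders, libraries used different genes. In all, 38 genes were among the 10 most used of at least 1 HSC library and 14 of them in exactly 1. For MPPs these numbers were 20 and 9. Some genes were prominent in a single library, above 5% of its V counts and under 1% in every other library of the table. Igkv6-25 took 5.21% of V counts (151 counts) in HSC PBS 6 and at most 0.434% elsewhere. Igkv11-125 took 7.08% (19585 counts) in MPP MTP10-HDL 1 and at most 0.110% elsewhere. Igkv3-10 took 6.44% (10877 counts) in MPP MTP10-HDL 2 and at most 0.141% elsewhere.

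The usage shared by a pair of libraries, the sum over genes of the smaller of their shares, had a median of 47.4% between HSC PBS libraries (21 pairs, 18.8% to 78.8%), 49.9% between HSC MTP10-HDL libraries (15 pairs, 31.8% to 62.9%) and 45.3% across treatments (42 pairs, 19.9% to 72.8%). The ranges within and across treatments overlapped widely. PBS 6 was least like the rest, with a median of 22.9%, and PBS 1 and PBS 3 were the most alike, at 78.8%. Between MPP libraries the shared usage was 70.9% for the PBS pair, 60.2% to 66.9% among MTP10-HDL libraries and 63.0% to 73.1% across treatments. Pairs share libraries and were not tested.

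Heavy and light genes rose and fell together across HSC libraries in specific combinations. All 25 combinations of 5 heavy and 5 light genes of large mean share within their chain were correlated over the 13 libraries, each gene as a percent of its own chain's V counts, with 100000 permutations and Benjamini-Hochberg adjustment over the 25. Shares within a chain sum to a fixed total, so a gene that dominates a library lowers the others of its chain. The genes were chosen by their level in these libraries. Both treatments and all sets of libraries were correlated together, so differences between treatments or sets enter these values, and their part was not tested.

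Ighv7-1 and Igkv15-103 followed each other most evenly. Ighv7-1 took 9.90% to 55.4% of heavy counts and Igkv15-103 took 1.42% to 53.3% of light counts, both lowest in PBS 6 and next lowest in MTP10-HDL 1. Pearson's r was 0.95 and Spearman's rho 0.96, each with a permutation p of 1e-05, the smallest that these permutations can give, and an adjusted p of 0.00025. Without PBS 6 and MTP10-HDL 1, the libraries farthest from the median, r was 0.92. In the 5 MPP libraries both genes were highest in MTP10-HDL 3, with 33.9% of heavy and 31.9% of light counts. Their lowest MPP values were 16.4% for Ighv7-1 in PBS 2 and 11.4% for Igkv15-103 in MTP10-HDL 2.

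Ighv5-16 and Igkv1-88 had an r of 0.98 (permutation p = 3e-05, adjusted 0.000375) and a rho of 0.80 (permutation p = 0.00154, adjusted 0.0192). In PBS 5 and PBS 6, Ighv5-16 took 40.4% and 48.8% of heavy counts and Igkv1-88 took 34.9% and 40.6% of light counts. These libraries stood far from the rest, and without them r was 0.77. In the MPP table Ighv5-16 was highest in PBS 2 and MTP10-HDL 3, at 13.5% and 11.2% of heavy counts, and so was Igkv1-88, at 9.78% and 7.88% of light counts.

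Ighv11-2 and Igkv14-126, the phosphatidylcholine-binding combination, had an r of 0.86 (permutation p = 0.0002, adjusted 0.00167) and a rho of 0.74 (permutation p = 0.00521, adjusted 0.0434). Both were lowest in MTP10-HDL 3, at 1.99% of heavy and 1.96% of light counts, and highest in MTP10-HDL 6, at 14.0% and 18.9%. Without MTP10-HDL 6 and PBS 6, r was 0.80. In the MPP table both genes were highest in PBS 3, at 14.8% of heavy and 34.1% of light counts.

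**Figure D4:**
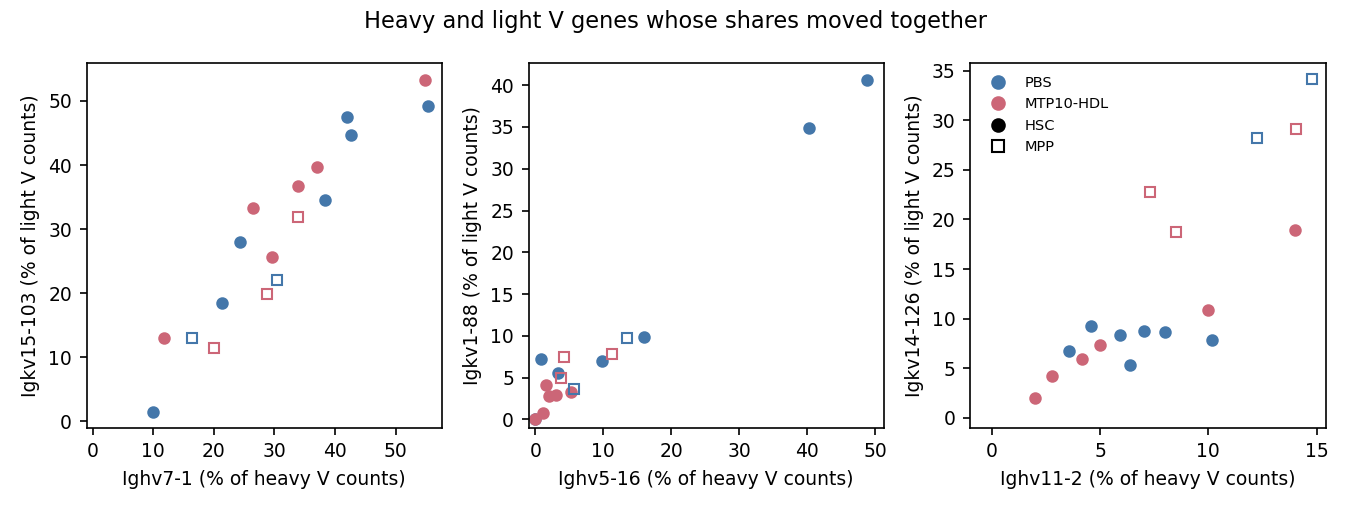
Heavy gene share (percent of heavy V counts, x axis) against light gene share (percent of light V counts, y axis) for 3 combinations, with 1 point per library, PBS in blue, MTP10-HDL in red, filled circles for HSC and open squares for MPP. HSC points run along a diagonal in each panel, with r from 0.86 to 0.98 over the 13 HSC libraries, and the middle panel has PBS 5 and 6 far from the rest. In the panel of Ighv11-2 and Igkv14-126 the MPP squares lie above most HSC points, at 18.7% to 34.1% of light counts.

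Further combinations passed adjustment by r alone. Ighv6-3 and Iglv1 had an r of 0.80 (permutation p = 0.00202, adjusted 0.0126) but a rho of 0.46 (permutation p = 0.119, adjusted 0.331), and r was 0.78 without MTP10-HDL 2 and 3. Ighv5-16 and Igkv12-89 had an r of 0.80 (permutation p = 0.00699, adjusted 0.0349) that rested on PBS 5 and 6, since r was 0.05 without them. None of the remaining 20 combinations passed adjustment by either measure. The sets of 4, 4 and 5 libraries that share detected gene numbers or ribosomal RNA shares are too small for correlations within them.

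Use was uneven along the loci. The Ighv1 family holds 53 of the 113 heavy genes but took a median of 20.2% of heavy counts in HSC libraries and 23.4% in MPP libraries. The Ighv7 family, with 4 genes, took 34.8% and 29.2%, nearly all of it Ighv7-1. Among kappa families, Igkv4 holds 26 of 100 genes and took a median of 3.07% of kappa counts in HSC libraries and 6.00% in MPP libraries, against 40.3% and 21.1% for the single gene of Igkv15. The 37 heavy genes nearest to the constant region, 156 to 831 kb from Ighm, took a median of 65.1% of heavy counts in HSC libraries (30.5% to 78.7%) and 60.5% in MPP libraries (49.7% to 64.2%). For kappa the 34 genes farthest from Igkc, at 1891 to 3170 kb, took most, with medians of 72.6% (36.5% to 82.5%) and 69.0% (62.3% to 77.7%). Distances are on mm10, and these kappa genes include Igkv15-103, Igkv14-126 and Igkv12-89.

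V gene levels were then compared between treatments, gene by gene, with edgeR's quasi-likelihood test and Benjamini-Hochberg adjustment over all genes tested, at a false discovery rate (FDR) of 0.05. Levels are in CPM and fold changes are log2 of MTP10-HDL over PBS. V genes of a family are near copies of each other, and how reads matching several of them were counted is not given in the sources used here, so single-gene values are uncertain to that extent.

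For HSCs, 77 members had enough counts to be tested, 136 had counts but were not tested, and 5 had none. None of the 77 passed, as none of all 16631 genes tested did (0% called), and the smallest adjusted p of a member was 0.372 by edgeR's quasi-likelihood test. At an unadjusted p below 0.05, 15 of the 77 were lower with MTP10-HDL, or 19.5% against 4.47% of all genes, and 0 were higher, against 4.36%. In either direction 8.83% of all genes had such a p. DESeq2 called 0 members and 92 genes in all. Fold changes were below 0 for 70 of 77 members against 52.3% of all genes, with a median log2 fold change of -1.51 against -0.02. A member that passes the filter through high PBS libraries alone is bound to lie lower with MTP10-HDL, so these counts describe the tested members only. Over all 213 members with a count, the mean CPM was lower with MTP10-HDL for 176.

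No tested HSC member separated the groups, against 0.168% of all genes lower and 0.174% higher without overlap. PBS 2, the library richest in V counts, held the highest level of 131 of the 213 members with a count. Without PBS 2, 59 members were tested, 31 had fold changes below 0 and the median was -0.09. With the sets of libraries named above as a covariate the median was -0.79, with 57 of 77 below 0.

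The 3 HSC members of smallest p on the lower side were Igkv1-88, Ighv5-16 and Iglv3. Igkv1-88 stood at 0.502 to 2473 CPM with PBS (median 476) and 0.515 to 133 CPM with MTP10-HDL (median 35.0). The log2 fold change was -3.90 ± 1.20 (SE; adjusted p = 0.372 by edgeR). Ighv5-16 stood at 0 to 975 CPM with PBS (median 158) and 0.172 to 55.7 CPM with MTP10-HDL (median 19.2). Its log2 fold change was -3.40 ± 1.05 (SE; edgeR adjusted p = 0.372). Both genes had 1 PBS library, PBS 4, at or below the lowest MTP10-HDL library. Iglv3, a lambda gene, stood at 0.161 to 190 CPM with PBS (median 3.96) and 0.398 to 6.80 CPM with MTP10-HDL (median 2.22), with a log2 fold change of -3.84 ± 1.27 (SE; edgeR adjusted p = 0.409).

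On the higher side the 3 of smallest p were Ighv6-3, Igkv6-14 and Ighv1-18. Ighv6-3 stood at 6.59 to 270 CPM with PBS (median 70.8) and 4.43 to 1108 CPM with MTP10-HDL (median 139). The log2 fold change was 1.82 ± 0.94 (SE; edgeR adjusted p = 0.578). Igkv6-14 and Ighv1-18 were low throughout, with medians of 0.697 and 2.64 CPM for PBS and 2.31 and 5.59 CPM for MTP10-HDL. All 3 genes overlapped between groups.

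The leading HSC genes did not pass either. Igkv15-103 stood at 3.86 to 11877 CPM with PBS (median 1110) and 109 to 2194 CPM with MTP10-HDL (median 341), with a log2 fold change of -1.97 ± 1.11 (SE; edgeR adjusted p = 0.604). Ighv7-1 stood at 19.1 to 8420 CPM with PBS (median 817) and 104 to 1691 CPM with MTP10-HDL (median 239), with a log2 fold change of -1.85 ± 1.05 (SE; edgeR adjusted p = 0.607). Both had the highest level in PBS 2 and the lowest in PBS 6, so the PBS libraries enclosed the MTP10-HDL range.

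For MPPs, 180 members were tested, 24 had counts but were not tested, and 14 had none. None of the 180 passed, as none of all 15449 genes tested did (0% called), with a smallest adjusted p of 0.0928 for a member by edgeR's quasi-likelihood test. At an unadjusted p below 0.05, 93 of the 180 were lower with MTP10-HDL, or 51.7% against 4.06% of all genes, and 1 was higher, against 2.17%. In either direction 6.23% of all genes had such a p. DESeq2 called 41 members, all lower, among 180 genes called in all. Fold changes were below 0 for 166 of 180 members against 48.0% of all genes, with a median log2 fold change of -2.05 against 0.02. Of the 180, 80 (44.4%) lay lower in all 3 MTP10-HDL libraries than in both PBS libraries, against 12.3% of all genes, and 0 lay higher without overlap, against 12.0%. The filter asks for counts in as few libraries as the PBS group has, so a gene present with PBS alone passed. Over all 204 members with a count, the mean CPM was lower with MTP10-HDL for 181.

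The MPP result rested on the PBS pair. Without PBS 2, 122 of 187 members tested had fold changes below 0, the median was -0.68 against 0.07 over all genes, and edgeR called 0 genes, with an unadjusted p below 0.05 for 52 members (27.8%) against 3.66% of all genes. Without PBS 3, 174 of 191 were below 0, the median was -2.47 against 0.03 over all genes, and 15 members (7.85%) were called, all lower, among 17 genes called in all (0.0969%). In both fits the lone PBS library is assumed to vary like the MTP10-HDL libraries. The members' median was below 0 against either PBS library, and nearer to 0 against PBS 3. Whether the treatment difference itself differed between HSCs and MPPs was not tested.

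**Figure D5:**
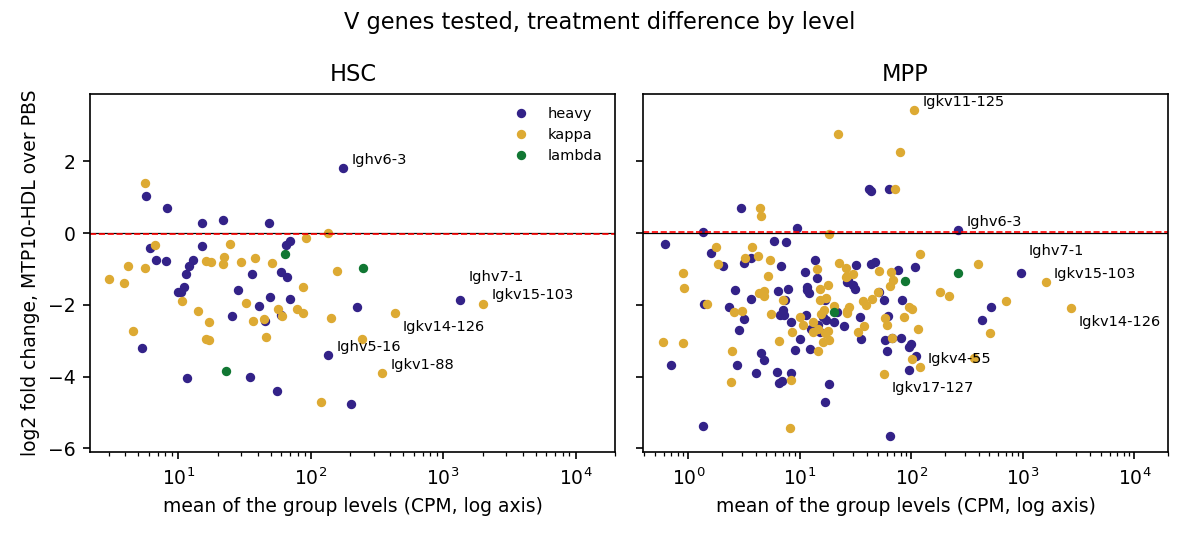
Log2 fold change of MTP10-HDL over PBS against the mean of the group levels (CPM, log axis) for each V gene tested in the HSC table (77 genes) and the MPP table (176 genes, leaving out 4 with a group at 0), coloured by chain. The solid line marks 0 and the dashed line the median of all genes tested (-0.02 and 0.02); most points lie below both lines, and no gene passed adjustment by edgeR.

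The 3 MPP members of smallest p were lower with MTP10-HDL and shared the smallest adjusted p of 0.0928 by edgeR. Igkv4-55 (chromosome 6, 69607275 to 69607801) stood at 286 and 154 CPM with PBS and at 18.5, 19.1 and 11.5 CPM with MTP10-HDL. The log2 fold change was -3.75 ± 0.35 (SE), and DESeq2 gave an adjusted p of 2.35e-22. Igkv17-127 (chromosome 6, 67861159 to 67861659) stood at 70.6 and 141 CPM with PBS and at 7.49, 9.12 and 4.18 CPM with MTP10-HDL, with a log2 fold change of -3.92 ± 0.41 (SE). Ighv1-9 (chromosome 12, 114583569 to 114583862) stood at 241 and 116 CPM with PBS and at 19.5, 18.2 and 25.8 CPM with MTP10-HDL, with a log2 fold change of -3.08 ± 0.33 (SE). In each of these genes every MTP10-HDL library lay below both PBS libraries. They were minor genes, with at most 1.15% of V counts for Igkv4-55, 1.06% for Igkv17-127 and 0.873% for Ighv1-9.

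The leading MPP genes differed by less. Igkv14-126 stood at 5403 and 3269 CPM with PBS and at 989, 1307 and 790 CPM with MTP10-HDL. The log2 fold change was -2.08 ± 0.33 (SE; edgeR adjusted p = 0.226), and DESeq2 gave an adjusted p of 1.83e-08. Its heavy partner Ighv11-2 stood at 1110 and 553 CPM with PBS and at 243, 211 and 147 CPM with MTP10-HDL, with a log2 fold change of -2.05 ± 0.35 (SE; edgeR adjusted p = 0.226). Neither gene overlapped between groups.

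Igkv15-103 stood at 2500 and 2114 CPM with PBS and at 1050, 513 and 1108 CPM with MTP10-HDL. Its log2 fold change was -1.37 ± 0.35 (SE; edgeR adjusted p = 0.485). Ighv7-1 stood at 1480 and 1135 CPM with PBS and at 825, 299 and 679 CPM with MTP10-HDL. Its log2 fold change was -1.12 ± 0.40 (SE; edgeR adjusted p = 0.736). Both were lower in every MTP10-HDL library, as were Igkv12-89 and Iglv1, with log2 fold changes of -2.78 ± 0.77 and -1.11 ± 0.38 (SE; edgeR adjusted p = 0.559 and 0.717). Igkv1-88, Ighv5-16 and Igkv5-39 overlapped between groups, with log2 fold changes of -1.90, -2.42 and -0.85. Ighv6-3 was level, at 381 and 130 CPM with PBS and 486, 205 and 116 CPM with MTP10-HDL, with a log2 fold change of 0.08 ± 0.63 (SE; edgeR adjusted p = 0.990).

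The 3 MPP members of smallest p on the higher side each rested on some of the MTP10-HDL libraries. Igkv8-26 (chromosome 6, 70193228 to 70193797) had no count in either PBS library and stood at 10.0, 0 and 34.8 CPM with MTP10-HDL 1, 2 and 3. Against a floor of 3 counts over the PBS group it was at least 105-fold higher (edgeR adjusted p = 0.736), yet 1 MTP10-HDL library held none. Igkv11-125 (chromosome 6, 67913573 to 67914052) stood at 21.3 and 14.5 CPM with PBS and at 577, 6.60 and 0.440 CPM with MTP10-HDL, so only MTP10-HDL 1 was high. Igkv8-21 (chromosome 6, 70314895 to 70315452) stood at 11.02 and 0.0885 CPM with PBS and at 109, 7.49 and 0 CPM with MTP10-HDL.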

How the data were processed

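The authors deposited whole-number raw counts per Ensembl gene, 1 table for HSCs (13 libraries) and 1 for MPPs (5). Per the labels' protocols, HSC RNA was amplified to complementary DNA and read as single 50-base reads, and MPP RNA was poly-A selected with insect carrier RNA and a directional kit. The submitters' processing notes name CASAVA 1.8.2 with STAR 2.5.2b for HSCs, STAR 2.7.2a with DESeq2 1.24 and R 3.6.1 for MPPs, and the mm10 genome. The sources used here give neither counting tool nor strand setting, nor how multi-mapped reads were counted. The labels number 1 HSC PBS sample 8 where the table has a PBS column 7, used as a PBS library under the table's number. The 12 ATAC-seq samples were not analysed here.

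The tables were fitted separately by edgeR 4.0.16 under R 4.3.3 (TMM scaling, filterByExpr defaults, quasi-likelihood test, FDR threshold 0.05 over all genes); DESeq2 1.42.0 was an alternative. Usage shares were computed in Python from raw counts. The code was tested on simulated data. Positions come from the RefSeq table of GRCm38.p6, matched by symbol for 216 members. Named genes are, per table, the 10 of largest mean share of V counts, each library's leading V gene, members past the threshold, and the 3 of smallest p in each direction; genes prominent in 1 library were chosen after their values were seen. Members and lists were chosen with earlier results of these data known. Alternatives were scaling, filters, left-out libraries, replicate block, technical sets, pseudogenes, chains and gene length.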

Additional observations from a re-analysis of the deposited data

Results flagged for a closer look

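In the HSC groups, 6 of 42 groups of values had 1 library far from the others by Dixon's criterion. About 1 in 20 groups of independent, normally distributed values would meet it. The genes looked at were named from these same libraries, Igkv3-10 by leading PBS 7, so the 6 are not to be set against that rate. The V share of PBS 2, 4.41% of counts, stood apart from the next PBS library at 1.33%. Igkv3-10 took 25.1% of V counts in PBS 7, against 0.635% in the next PBS library, and 5.44% in MTP10-HDL 5, against 0.529% in the next MTP10-HDL library. The other values that stood apart were of minor genes: Ighv1-18 with 0.225% of V counts in PBS 7, Iglv3 with 0.399% in MTP10-HDL 6 and Igkv6-14 with 1.25% in MTP10-HDL 1. MPP groups were too small for the criterion.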

How the results depend on the processing

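Counts of V genes called by edgeR moved most with the filter: without one, 22 of 213 HSC members and 134 of 204 MPP members passed (21 and 126 lower), among 44 (0.0921%) and 345 (1.32%) of all genes. For MPPs, DESeq2 called 41, scaling without TMM 2, and leaving out a library 0 to 15, with 15 without PBS 3. HSC counts were 0 under every other alternative, leaving out each library included. The MPP log2 V share difference ran from -2.14 to -1.06 when a library was left out. With heavy genes alone, MPP differences (MTP10-HDL minus PBS) were 4.20 percentage points for the top gene, 10.1 for the top 10 and -2.86 for the effective number, against -3.55, 3.27 and 0.82 over all V genes. Among the alternative values for these and the other summary results, 120 stayed within 1.5 times or 1 SD and 11 moved. The cause of these shifts was not tested.

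Same-numbered libraries shared only a number: correlations of their deviations were -0.19 to 0.19 for HSC and -0.17 and -0.03 for MPP pairs. With the replicate number as a block, 0 HSC and 47 MPP members were called, 46 of the latter lower. Of all genes, 0 and 59 (0.382%) were called. MPP MTP10-HDL 1 has no PBS library of its number, so it adds nothing to the MPP difference in that fit. Few libraries are then left to estimate the spread. MPP Ighv6-3, Igkv11-125 and Igkv8-21, each highest in MTP10-HDL 1, turned to log2 fold changes of -0.53, -3.04 and -0.70. Leaving out 1 library also turned directions. Log2 fold changes then ran from -1.55 to 0.22 for HSC Iglv1 (0.22 without PBS 2), and for MPP genes from -1.56 to 0.64 for Igkv5-39 (0.64 without PBS 2), from -0.67 to 1.05 for Ighv6-3 (-0.67 without MTP10-HDL 1, -0.50 without PBS 3), from -2.33 to 4.03 for Igkv11-125 and from -0.57 to 8.69 for Igkv8-21 (both lowest without MTP10-HDL 1). V counts per library ran from 2898 to 414503, so shares of minor genes are least precise in HSC PBS 6 and MTP10-HDL 6 (3762).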

Other observations

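Ighv5-6, a heavy gene outside the naming rule and chosen after its values were seen, stood out in the libraries where Igkv3-10 did. In HSC PBS 7, Ighv5-6 took 30.0% of heavy counts and Igkv3-10 took 37.8% of light counts. In HSC MTP10-HDL 5 the values were 9.51% and 9.14%, and in MPP MTP10-HDL 2 they were 10.9% and 8.59%. In every other library Igkv3-10 stayed at or below 0.985% of light counts, and Ighv5-6 at or below 3.84% of heavy counts, the latter in HSC MTP10-HDL 2. These 3 libraries span both tables and both treatments.

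Igkv7-33, known as the light chain partner of Ighv7-1 in antibodies to phosphorylcholine and also chosen after its values were seen, was a minor gene. It took a median of 0.0503% of HSC V counts, with 5.63% in PBS 5 and 4.24% in PBS 6 as its highest values. Those are the libraries in which Igkv1-88 and Ighv5-16 led, and in which Ighv7-1 took 6.91% and 4.11% of V counts.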
